A study of Macrobrachium rosenbergii with 20 samples.

Results

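A set of 300 transcripts of the giant freshwater prawn, Macrobrachium rosenbergii, was described here because each had a higher median level in males than in females in the hepatopancreas and in the gonads. The set was chosen by measured values. Levels are normalized counts, which are the deposited estimated counts rounded and divided by a scaling factor for each library (the DESeq2 median-of-ratios size factor over all 20 libraries). A member had a median of at least 50 normalized counts in the male hepatopancreas and in the testis. Its male to female ratio of medians was at least 2 in both tissues, after 1 was added to each median. These conditions were met by 308 of 30260 transcripts, and the 300 with the highest smaller ratio were kept. Of the 30260 transcripts, 10464 had a count in any library, and 4240 had medians at the minimum of 50 in both male groups. Among those 4240, 167 passed the ratio in the hepatopancreas alone and 1127 in the gonads alone. The 4240 transcripts at the same minimum level serve below as the comparison for descriptions of levels.

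The hepatopancreas is the digestive gland of crustaceans, which secretes digestive enzymes and stores lipid and glycogen. In females of many decapods it also makes vitellogenin, the yolk protein precursor taken up by the ovary. Male development in decapods is directed by the androgenic gland, which lies along the sperm ducts and secretes an insulin-like hormone. That hormone acts on the testis and on male traits elsewhere in the body. The files hold transcript IDs and no gene names, and of the 31758 genes in the reference table used here 0 carried such an ID. No function can therefore be attached to a member here, and the tissues could not be checked against their marker genes.

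The libraries came from adult prawns of the strain labelled CMr1, which all groups share, and the labels name no treatment. The 4 groups were female hepatopancreas, male hepatopancreas, ovary and testis, with 5 libraries each, and per its title the study relates gut bacteria to expression in these organs and to growth. Animals were anaesthetised on ice, and tissues were washed and frozen in liquid nitrogen before RNA extraction, per the labels' protocols. The weight gain label, whose unit is not given, ran from 1.61 to 3.69 in male hepatopancreas and from 1.48 to 2.83 in testis. Its female values were higher, at 4.33 to 7.21 in hepatopancreas and 2.14 to 7.52 in ovary, where they overlapped the testis values. The labels do not say whether replicates are separate animals, though within each group every library carries a different weight gain value. P-values therefore measure the spread between these samples, and how much of it is technical was not tested.

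Library totals ran from 8670654 to 18355664 counts. The scaling factors differed between tissues, with 1.71 to 2.59 in ovary, 0.621 to 2.17 in testis, 0.527 to 0.779 in male hepatopancreas and 0.465 to 1.12 in female hepatopancreas. Membership moved with this choice: scaled by library totals alone, 94 transcripts met the rule, of which 89 belong to the 300. With group means in place of medians, 257 met it, of which 173 belong to the 300. Female hepatopancreas 4, male hepatopancreas 5 and testis 5 are called atypical here, from earlier results of these data. Without those 3 libraries 382 transcripts met the rule, and 258 of the 300 were among them.

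The members' median male to female ratio was 2.95 in the hepatopancreas (quartiles 2.33 and 4.17, range 2.03 to 2219) and 8.42 in the gonads (quartiles 3.90 and 34.4, range 2.03 to 3432). Most members lay close to the threshold in the hepatopancreas, where 153 had a ratio from 2 to under 3, against 45 in the gonads. The gonad ratio was the larger of the pair in 246 members, or 82.0%, against 50.7% of the 4240 transcripts at the same minimum. A ratio of at least 8 was reached by 41 members in the hepatopancreas, by 152 in the gonads and by 30 in both. In a bulk sample, fewer cells of a type and less RNA per cell cannot be told apart.

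**Figure D1:**
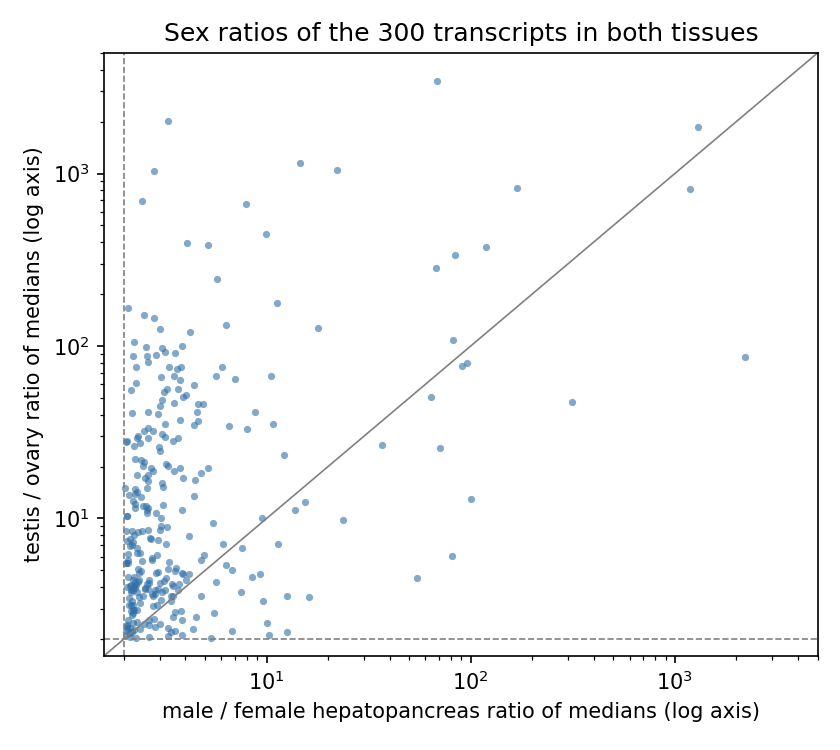
Male to female ratio of median normalized counts in the gonads (y, log axis) against that in the hepatopancreas (x, log axis) for the 300 transcripts, 1 point each. Dashed lines mark the ratio of 2 set by the rule and the solid line marks equal ratios; 246 points lie above the solid line.

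At the edges of the rule, the member with the lowest male hepatopancreas median stood at 50.04 normalized counts and the nearest transcript outside at 49.4. For the testis median these values were 50.4 and 49.9. For the gonad ratio they were 2.03 and 1.98. For the hepatopancreas ratio, the nearest transcript that met the rule stood at 2.003 and was among the 8 left out by the limit of 300, and the nearest outside stood at 1.996. The last member kept had a smaller ratio of 2.0264 and the first left out one of 2.0252.

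The members took on average a larger share of all counts in the male hepatopancreas (5.37 ± 2.11%, SD, n = 5) than in the other groups. It was 4.95%, 5.38%, 8.05%, 6.21% and 2.25% in male hepatopancreas 1 to 5, and 2.37%, 1.29%, 2.76%, 1.82% and 1.26% in female hepatopancreas 1 to 5. The male hepatopancreas 5 library fell within the female range, and the other male libraries lay above it. In the gonads the shares did not overlap: 1.79% to 2.34% in testis (mean 1.996 ± 0.215, SD, n = 5) and 0.637% to 1.27% in ovary (mean 0.966 ± 0.228, SD, n = 5). Because the rule chose the members for these sex differences, the shares are a description.

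A few abundant members carried much of the hepatopancreas share. The 5 members of highest summed level in the male hepatopancreas held 48.0%, 55.9%, 58.3%, 50.3% and 32.3% of the members' counts in male hepatopancreas 1 to 5. In the testis libraries the same 5 members held 7.88% to 13.8%. These members were picked for their hepatopancreas level, and nothing is read from their lower testis share.

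The level of a typical member was close in both male tissues and lowest in the ovary. The median over members of log2 normalized counts plus 1 was 8.28, 8.58, 8.51, 8.52 and 7.59 in male hepatopancreas 1 to 5 and 8.59, 8.77, 8.15, 7.96 and 6.90 in testis 1 to 5. It ran from 6.39 to 7.35 in female hepatopancreas and from 3.85 to 5.14 in ovary libraries. Libraries numbered 5 were the lowest of both male groups, and testis 5 lay within the female hepatopancreas range. Over the 4240 transcripts at the same minimum, the same median stood between 8.01 and 8.31 in all 20 libraries. The scaling factors were set from transcripts with counts in all 20 libraries, which include 3984 of the 4240 (94.0%). A steady median over them thus follows from the scaling, and the rule set the members' sex differences. These levels are a description.

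**Figure D2:**
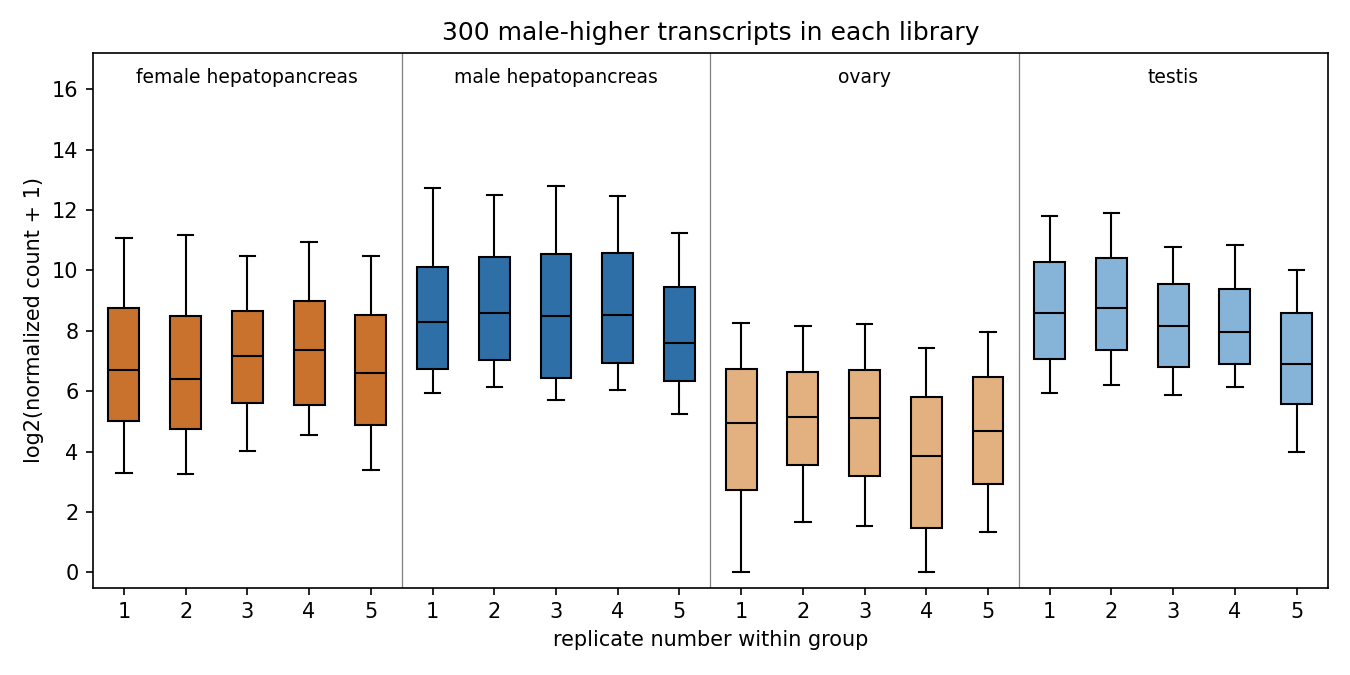
Levels of the 300 transcripts in each of the 20 libraries, as log2 of normalized counts plus 1 (y), by replicate number within each group (x). Boxes span the quartiles with the median as a line and whiskers reach the 10th and 90th percentiles; medians run from 7.59 to 8.58 in male hepatopancreas and from 3.85 to 5.14 in ovary.

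Few members were absent from females. The female medians were 0 in both tissues for 6 members and under 10 normalized counts in both for 11. All 4 group medians reached 50 for 93 members, or 31.0%, against 81.2% of the transcripts at the same minimum. Every one of the 20 libraries had counts of 205 members (68.3%, against 94.0%). The ovary median was 0 for 19 members and the female hepatopancreas median for 7.

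The order of the female tissues differed from that of the male tissues. The female hepatopancreas median was above the ovary median for 254 members (84.7%), against 53.7% of the transcripts at the same minimum. The male hepatopancreas median was above the testis median for 156 (52.0%, against 49.1%). For 69 members (23.0%, against 48.3%) the female hepatopancreas median was also above the testis median. The rule held the members' ovary medians under their testis medians, so these shares depend on it and are a description. They also rest on the scaling between tissues.

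The highest levels per kilobase in the male hepatopancreas belonged to 2 transcripts of the same pattern. Female_transcript15204 (transcript_HQ_Female_transcript15204/f5p0/1152, 1152 bases) averaged 169321 normalized counts per kilobase there, against 3300.2 in female hepatopancreas, 86.1 in testis and 12.9 in ovary. Female_transcript2089 (transcript_HQ_Female_transcript2089/f57p0/2368, 2368 bases) averaged 133529, 16473, 504.5 and 202.8 in the same order. The words Female and Male in these names are part of the IDs, and their meaning is not given in the sources used here. The ID word was Female for 291 members (97.0%), for 97.6% of the transcripts at the same minimum and for 42.1% of all 30260.

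The level of Female_transcript2089 was 323284, 450001, 389031, 372038 and 46625 normalized counts in male hepatopancreas 1 to 5. In female hepatopancreas 1 to 5 it was 85545, 9713, 8962, 29725 and 61097. Male library 5 lay below female libraries 1 and 5, while the other male libraries lay above all females.

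In the testis the highest levels per kilobase were those of Male_transcript11617 (transcript_HQ_Male_transcript11617/f3p0/1673) and LQ_Female_transcript7674 (transcript_LQ_Female_transcript7674/f2p0/1678). Male_transcript11617 averaged 11583 normalized counts per kilobase in testis, 35366 in male hepatopancreas, 15737 in female hepatopancreas and 4501 in ovary. LQ_Female_transcript7674 averaged 7571, 16457, 7848 and 4018 in the same order. Both were thus abundant in all 4 groups, with sex ratios near the threshold: 2.16 and 2.92 for the former, and 2.06 and 2.24 for the latter, in hepatopancreas and gonads.

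Libraries within a group differed more for the members than over the 4240 transcripts at the same minimum, which include the members. The median coefficient of variation over 5 libraries was 0.611 in testis, 0.687 in ovary, 0.427 in male and 0.695 in female hepatopancreas. Over the 4240 transcripts it was 0.377, 0.280, 0.256 and 0.333. The minimum covers the male groups alone, so the female groups are compared at unlike levels. The median level was 26.9 for the members against 288 in ovary, and 95.9 against 262 in female hepatopancreas. In testis it was 278 against 269, and in male hepatopancreas 338 against 277. The levels that set this spread are the levels used by the rule.

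The sexes did not overlap in the hepatopancreas for 52 members, where every male library was above every female one. Over all transcripts at the same minimum the share was 4.83%. Every testis was above every ovary for 170 members, against 22.7%, and 27 members showed both, against 1.37%. Since the rule used the same contrasts, nothing is read from the differences between these shares.

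Leaving out male hepatopancreas 5 and testis 5, a setting chosen after seeing the data, 117 members (39.0%, against 9.72% of the transcripts at the same minimum) did not overlap in the hepatopancreas, 232 (77.3%, against 30.3%) in the gonads and 96 (32%, against 4.36%) in both. Male hepatopancreas 5 was the lowest male library for 149 members (49.7%), against 26.4% of the transcripts at the same minimum. Testis 5 was the lowest testis for 183 (61.0%), against 38.8%. Male hepatopancreas 5 was under the female median for 39 members (13%, against 48.1%), and testis 5 under the ovary median for 36 (12%, against 50%). The rule set the members' male medians above their female medians. The shares without overlap and under the female medians depend on it, and nothing is read from their differences. In the ovary, library 4 was the lowest for 140 members (46.7%, against 23.9%), and in the testis, library 2 was the highest for 134 (44.7%, against 28.9%).

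**Figure D3:**
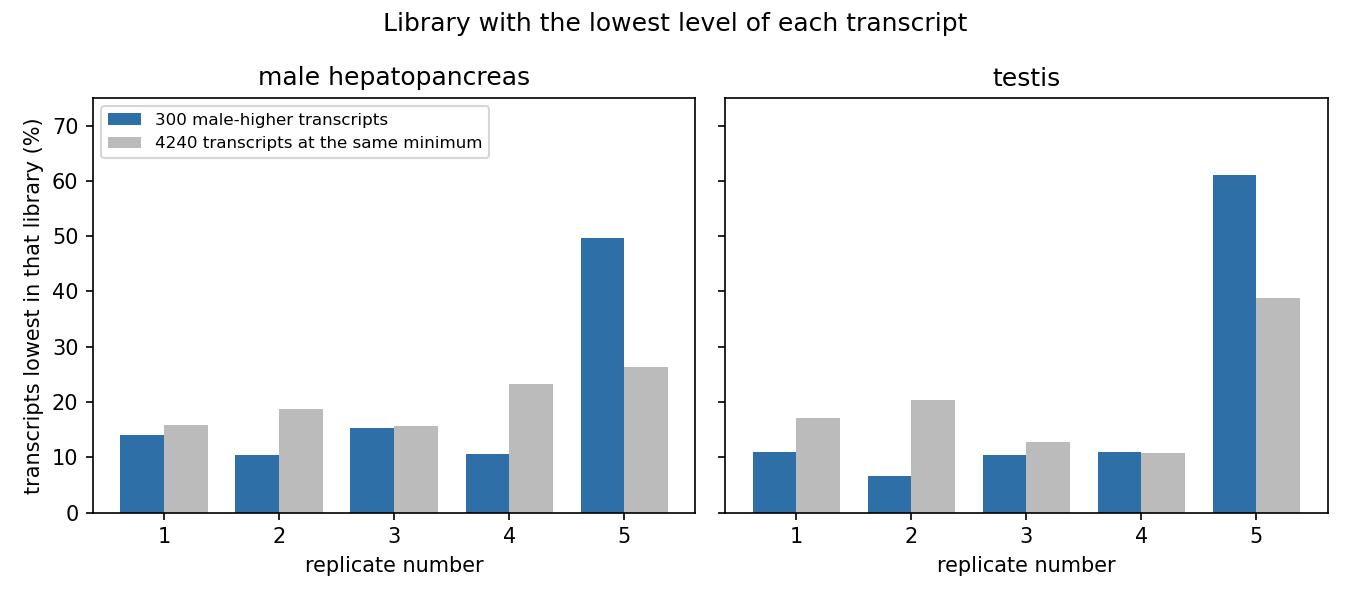
Share of transcripts (y, percent) for which each replicate number (x) was the lowest library of the male hepatopancreas (left) or the testis (right). Blue bars stand for the 300 transcripts and grey bars for the 4240 at the same minimum; number 5 reaches 49.7% and 61.0% of the 300.

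In edgeR's quasi-likelihood test with Benjamini-Hochberg adjustment over all transcripts tested, 47 of 298 members passed an adjusted p of 0.05 as higher in male than in female hepatopancreas, beside 2.2% of all 6582 tested. In the gonads 241 of 295 passed as higher in testis than in ovary, beside 29.9% of 7045. No member passed in the other direction in either tissue. The rule used these contrasts, so the counts describe the members and test nothing. The hepatopancreas count was 92 without female hepatopancreas 3, 76 without male hepatopancreas 5, 133 by DESeq2, and 0 without any one of the other 8 libraries or when scaled by library totals.

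The comparison of testis with male hepatopancreas asked where in the male the members were higher. The rule set a minimum in both tissues and fixed no direction between them. Of the 300 members, 57 (19.0%) were higher in testis and 76 (25.3%) were higher in male hepatopancreas at an adjusted p under 0.05 (edgeR), a balance that turned to 112 and 54 when libraries were scaled by their totals. Over all 7094 transcripts tested, 25.1% were higher and 23% lower in testis, and by library totals 44.7% and 15.3%, beside 37.3% and 18% of the members. The median change of the members, testis minus male hepatopancreas, was 0.09 on the log2 scale, against 0.21 over all tested. By library totals these medians were 0.92 and 1.099. The members' median thus differed from that of all transcripts by -0.12 and -0.18 under the respective scalings.

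Among members higher in testis, Female_transcript248 (transcript_HQ_Female_transcript248/f4p0/3759) stood at 2519, 3990.5, 1510.0, 2293 and 1077 normalized counts in testis 1 to 5. In male hepatopancreas 1 to 5 it stood at 110.0, 252, 102, 290.3 and 213. All testes lay above all male hepatopancreas libraries, and the change was 3.65 ± 0.43 on the log2 scale (SE, edgeR adjusted p 8.05e-05).

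Female_transcript7050 (transcript_HQ_Female_transcript7050/f48p0/1672) had 697, 1309, 842, 547 and 2508 normalized counts in testis 1 to 5. Its male hepatopancreas levels were 128, 142, 71.5, 58.8 and 148. The groups did not overlap, testis 5 was the highest, and the change was 3.60 ± 0.52 (SE, edgeR adjusted p 0.000278). This library was the lowest testis for most members, but not for this one.

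Among members higher in male hepatopancreas, Female_transcript15204 stood at 113803, 291845, 332047, 232229 and 5364 normalized counts in male hepatopancreas 1 to 5. Its testis levels were 72.5, 7.20, 94.4, 265.5 and 56.3. Male hepatopancreas 5 was far below the other male libraries and still above every testis, and the change, testis minus male hepatopancreas, was -10.75 ± 1.59 (SE, edgeR adjusted p 0.000339).

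Female_transcript1499 (transcript_HQ_Female_transcript1499/f11p0/2627) stood at 70160, 42843, 275399, 34475 and 602 normalized counts in male hepatopancreas 1 to 5. In the testes it stood at 46.7, 229, 78.2, 115 and 0.923. The male hepatopancreas 3 library was the highest and library 5 the lowest, and no testis reached the lowest hepatopancreas library. The change was -9.73 ± 1.87 (SE, edgeR adjusted p 0.0017). In the female hepatopancreas this transcript ran from 2.68 to 579, and in the ovary it had counts in library 5 alone.

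The 57 members higher in testis and the 76 higher in male hepatopancreas had like hepatopancreas sex ratios, with medians of 2.99 and 2.96, and different gonad ratios, with medians of 32.1 and 4.55. These ratios share libraries with the tissue comparison and are given as description. The 76 had a median over members of 3038 normalized counts in male hepatopancreas and 614 in female hepatopancreas. The 57 had 137 and 43.0. Male hepatopancreas 5 was the lowest male library of its tissue for 59 of the 76 and for 17 of the 57. Testis 5 was the lowest testis for 46 of the 76 and for 42 of the 57. The lists were called on these same libraries, and the shares over all transcripts called were not taken, so these counts are a description.

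In females, members were mostly higher in the hepatopancreas than in the ovary. Of 279 members tested, 154 (55.2%) were lower in ovary and 3 (1.08%) were higher at an adjusted p under 0.05 (edgeR). Over all 7107 transcripts tested, 33% were lower and 33.6% were higher in ovary. The median change, ovary minus female hepatopancreas, was -1.99 for the members and -0.03 over all tested. By library totals it was -0.38 and 1.63, with 59 members (21.1%) lower and 33 (11.8%) higher, beside 15.8% and 56.2% of all tested, and the members' median differed from that of all transcripts by -1.96 and -2.003. The rule held both female levels under the male ones and set no order between them. A member with a large gonad ratio nevertheless had a low ovary level, so this comparison is not independent of the rule.

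Female_transcript12358 (transcript_HQ_Female_transcript12358/f2p0/1396) stood at 852, 1593, 161, 876 and 1629 normalized counts in female hepatopancreas 1 to 5. In the ovary it had 3 counts in all, in library 5, and 0 in each of the other ovaries. Each group's summed counts were divided by its summed scaling factors, and the ratio, female hepatopancreas over ovary, was 3086. Its 95% interval of 1055 to 14971 covers counting error only. The edgeR adjusted p between these tissues was 1.32e-05. In males it had 1456 to 4620.1 in hepatopancreas and 0 to 937 in testis, with 0 in testis 5.

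Female_transcript475 (transcript_HQ_Female_transcript475/f3p0/3364) stood at 7868, 4317, 7408, 2865 and 3493 normalized counts in female hepatopancreas 1 to 5 and at 11.6, 0, 17.4, 0 and 15.2 in ovary 1 to 5. Every ovary was far below every female hepatopancreas library, and the change was -8.99 ± 1.37 (SE, edgeR adjusted p 0.000236). Its testis levels, 157 to 499, lay between those groups.

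Of the 3 members higher in ovary than in female hepatopancreas, Female_transcript1955 (transcript_HQ_Female_transcript1955/f6p0/2430) stood at 119, 149, 98.1, 226 and 108 normalized counts in ovary 1 to 5. In female hepatopancreas it stood at 42.4, 34.4, 39.4, 36.3 and 25.5. The groups did not overlap, and the change was 2.11 ± 0.29 (SE, edgeR adjusted p 0.000115), or 3.76 by library totals. In testis it ran from 66.0 to 534, so its testis and ovary levels overlapped.

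Female_transcript1026 (transcript_HQ_Female_transcript1026/f4p0/2881) had 90.01, 54.9, 42.5, 83.0 and 91.4 normalized counts in ovary and 35.3, 15.1, 34.0, 36.3 and 39.8 in female hepatopancreas 1 to 5. Its groups came closest at 42.5 and 39.8 without overlapping, and the change was 1.30 ± 0.35 (SE, edgeR adjusted p 0.00783), or 2.94 by library totals. The remaining member higher in ovary had a change of 2.17 ± 0.66 (SE, edgeR adjusted p 0.0141) and groups that overlapped.

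Comparing the sexes member by member, 279 members were tested between tissues in both. Of these, 84 passed in both sexes, 45 in males alone, 73 in females alone and 77 in neither. The same direction was found for 68 of the 84. Members higher in hepatopancreas numbered 76 in males and 154 in females, and 67 were shared, which is 88.2% of the male list and 43.5% of the female list. Over all transcripts tested, 1204 were shared, or 73.9% of 1629 and 51.3% of 2347. A group of 16 members was higher in testis in males and higher in hepatopancreas in females, which is 28.1% of the 57 and 10.4% of the 154. Over all transcripts tested, 284 were, or 15.9% of 1782 and 12.1% of 2347. Because the rule held the members' ovary medians under their testis medians, the shared lists depend on it. Nothing is read from the differences between these shares.

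**Figure D4:**
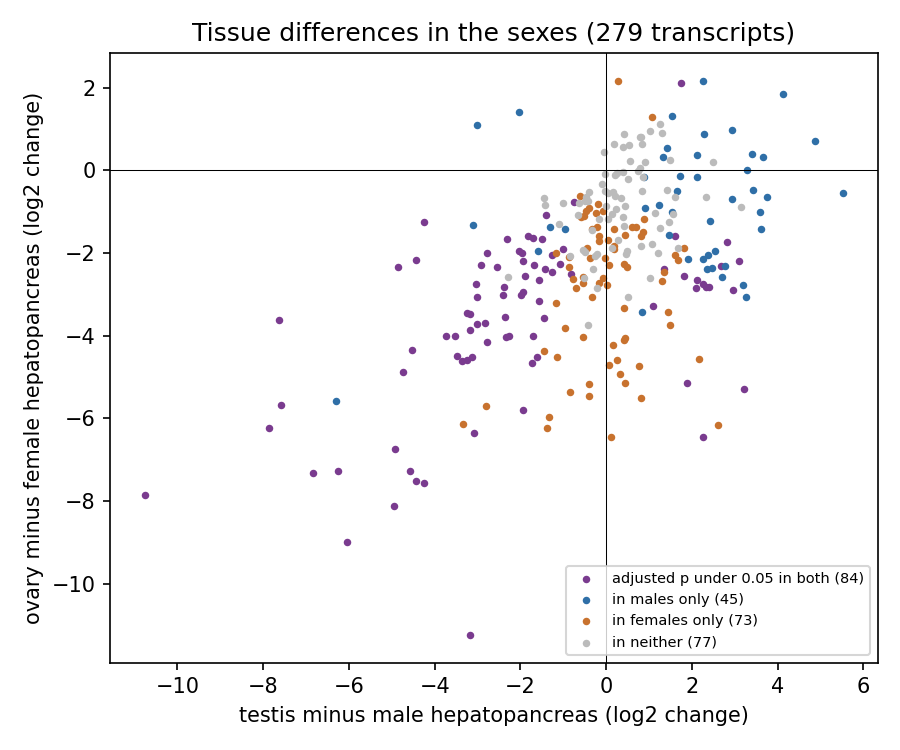
Log2 change of ovary minus female hepatopancreas (y) against testis minus male hepatopancreas (x) for the 279 transcripts tested in both sexes. Colours mark an edgeR adjusted p under 0.05 in both sexes (84), in males only (45), in females only (73) or in neither (77); with libraries scaled by totals, the balance of calls between the male tissues turned from 57 higher and 76 lower in testis to 112 and 54.

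The difference between the sexes was compared between the tissues through the interaction of sex and tissue over all 20 libraries. The sex difference was further toward males in the gonads for 111 of 300 members, beside 21.2% of 8043 transcripts tested, and further toward males in the hepatopancreas for 3, beside 16.3% (edgeR adjusted p under 0.05). By library totals these counts were 65 and 8, beside 11.9% and 21.6% of all tested. Both sides of this contrast entered the rule, so the counts are a description of the members. The median interaction was 1.81 on the log2 scale for the members and 0.16 over all tested, and 0.94 and -0.60 by library totals.

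The largest interaction toward the gonads was that of Female_transcript404 (transcript_HQ_Female_transcript404/f6p0/3454). It stood at 190.1, 142, 77.4, 44.9 and 2519 normalized counts in testis 1 to 5 and at 2.80, 2.20, 1.54, 0.585 and 0 in ovary 1 to 5. In male hepatopancreas it ran from 37.2 to 80.9, and in female hepatopancreas it stood at 44.2, 19.4, 14.3, 3496 and 0. Female hepatopancreas 4 and testis 5 were far above the other libraries of their groups. The interaction was 11.95 ± 2.54 (SE, edgeR adjusted p 0.00149), 6.87 without female hepatopancreas 4, and 4.04 without the 3 atypical libraries.

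Female_transcript1899 (transcript_HQ_Female_transcript1899/f32p0/2473) stood at 5111, 4875, 2789, 911 and 15.7 normalized counts in testis 1 to 5. Its ovary levels were 0.400, 1.65, 0.386, 0 and 0. In the hepatopancreas it ran from 65.4 to 503 in males and from 15.9 to 96.1 in females, which overlapped. Testis 5 was the lowest testis and still above every ovary, and the interaction was 10.08 ± 1.54 (SE, edgeR adjusted p 8.65e-05).

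Toward the hepatopancreas, Female_transcript2164 (transcript_HQ_Female_transcript2164/f4p0/2363) stood at 6260.4, 12402, 8345, 10095 and 322 normalized counts in male hepatopancreas 1 to 5. In female hepatopancreas 1 to 5 it stood at 108, 153, 561, 285 and 54.1. Male hepatopancreas 5 again lay within the female range. Its ovary levels ran from 151 to 1387 and its testis levels from 364 to 1495, and the interaction was -4.13 ± 1.18 (SE, edgeR adjusted p 0.0108).

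Female_transcript488 (transcript_HQ_Female_transcript488/f8p0/3334) stood at 52296, 66738, 61591, 35987 and 19019 normalized counts in male hepatopancreas 1 to 5 and at 9169.9, 8122, 7772, 4747 and 6483 in female hepatopancreas 1 to 5. The sexes did not overlap in this tissue. In the ovary it stood at 510.1, 35.1, 1852, 27.5 and 40.1, and in the testis from 109.5 to 361. The interaction was -4.00 ± 1.30 (SE, edgeR adjusted p 0.0215), and without ovary 3 it was -2.44 (adjusted p 0.0623). With the replicate number as a block it was -1.85 (edgeR adjusted p 0.286). The remaining member in this direction had an interaction of -3.43 ± 1.11 (SE, edgeR adjusted p 0.0218).

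Taken across the members, deviations in hepatopancreas and gonad libraries of the same replicate number were correlated. Such a correlation does not count how many members varied together. As a description across the 300 members, the deviations of male hepatopancreas libraries from their group mean correlated with those of the testis library of the same number at 0.547, 0.625, 0.588, 0.688 and 0.368 for numbers 1 to 5. For each number this was higher than with any testis of another number, where the highest was 0.160. Across 6944 transcripts with a group median of at least 50, the same-number correlations were 0.278, 0.217, 0.257, 0.252 and 0.146. For females the members gave 0.414, 0.480, 0.411, 0.138 and 0.671, each higher than with any other ovary. Across the 6944 transcripts the female values were 0.234, 0.139, 0.285, -0.0945 and 0.408. There, female hepatopancreas 2 and 4 each correlated more with the ovary of the other number. The transcripts share libraries and scaling, and the labels do not say whether a number marks an animal. For every number in both sexes, its hepatopancreas and gonad libraries carried unequal weight gain labels. They stood at 4.33 and 2.14 for female number 1, and at 4.45 and 7.52 for female number 5. In males they were 2.83 and 1.48 for number 4, but 2.06 and 2.05 for number 1. For male number 5 they were 2.77 and 2.74. What these labels mean for the pairing of numbers was not tested.

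The same number was lowest in both male tissues for 144 members (48.0%), against 30.9% of the transcripts at the same minimum. It was highest in both male tissues for 79 (26.3%, against 29.4%). In females the same number was lowest in both tissues for 73 (24.3%, against 28.9%) and highest for 125 (41.7%, against 25.4%). Tied transcripts were left out of these counts but kept in the totals behind the percentages. The female lowest library had no tie in either tissue for 256 members (85.3%), against 97.9% of the transcripts at the same minimum. The 2 female shares for the lowest number are therefore not alike in base, and nothing is read from their difference. Number 5 was often the lowest in each male tissue (49.7% and 61.0% of members). Whether the shared lowest number goes beyond this was not tested. A total of 155 members (51.7%, against 75.7%) reached 50 normalized counts in both tissues of all 5 male numbers. For 20 members (6.67%, against 1.56%) at least 1 male number was under 25 in both tissues. In these, male medians above the minimum went with male libraries that had little or none of the transcript.

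The members with the highest smaller ratio were of this kind. Male_transcript5671 (transcript_HQ_Male_transcript5671/f2p0/1995), with ratios of 1301 and 1864, stood at 21.03, 0, 2553, 1374 and 1300 normalized counts in male hepatopancreas 1 to 5 and at 538, 10.8, 8489, 5059 and 1863 in testis 1 to 5. In females it had counts in libraries 5 alone, with 597 in hepatopancreas and 14.2 in ovary. Numbers 3, 4 and 5 were thus high in both male tissues, and number 2 was low or absent in both.

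Female_transcript788 (transcript_HQ_Female_transcript788/f3p0/3041), with ratios of 1187 and 811, had 3252, 1394 and 1186 normalized counts in male hepatopancreas 2, 3 and 4, and 2484, 810 and 830.5 in the testes of those numbers. In male hepatopancreas and testis 1 and 5 it had 0. In females it had 0 in numbers 1 to 4, and in number 5 it had 2366 in hepatopancreas and 2103 in ovary. Its presence followed the replicate number in both sexes, and the female library with counts was as high as the male ones.

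Members split in this way in both sexes, with each number at 50 or above in both tissues or under 25 in both, numbered 3 (1.0%, against 0.495%). The other two were chosen after their values were seen. Male_transcript18457 (transcript_HQ_Male_transcript18457/f2p0/1372) was at 1606, 1300, 22.1, 0 and 1991 in male hepatopancreas 1 to 5 and at 1405, 1246, 11.3, 7.49 and 1208 in testis. In female hepatopancreas it was at 83.0, 5733, 36139, 8.20 and 15.9, and in ovary at 96.0, 3248, 5440.3, 2.92 and 4.57. Its highest libraries were thus female, and the rule took it in because medians ignore them.

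Female_transcript5756 (transcript_HQ_Female_transcript5756/f2p0/1853) was low in male number 1, with 8.09 in hepatopancreas and 0 in testis, and in female number 2, with 0 in hepatopancreas and 1.65 in ovary. In the other male numbers it ran from 1210 to 2298 in hepatopancreas and from 984 to 3299 in testis. In the other female numbers it ran from 310 to 1028 and from 84.9 to 482.

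**Figure D5:**
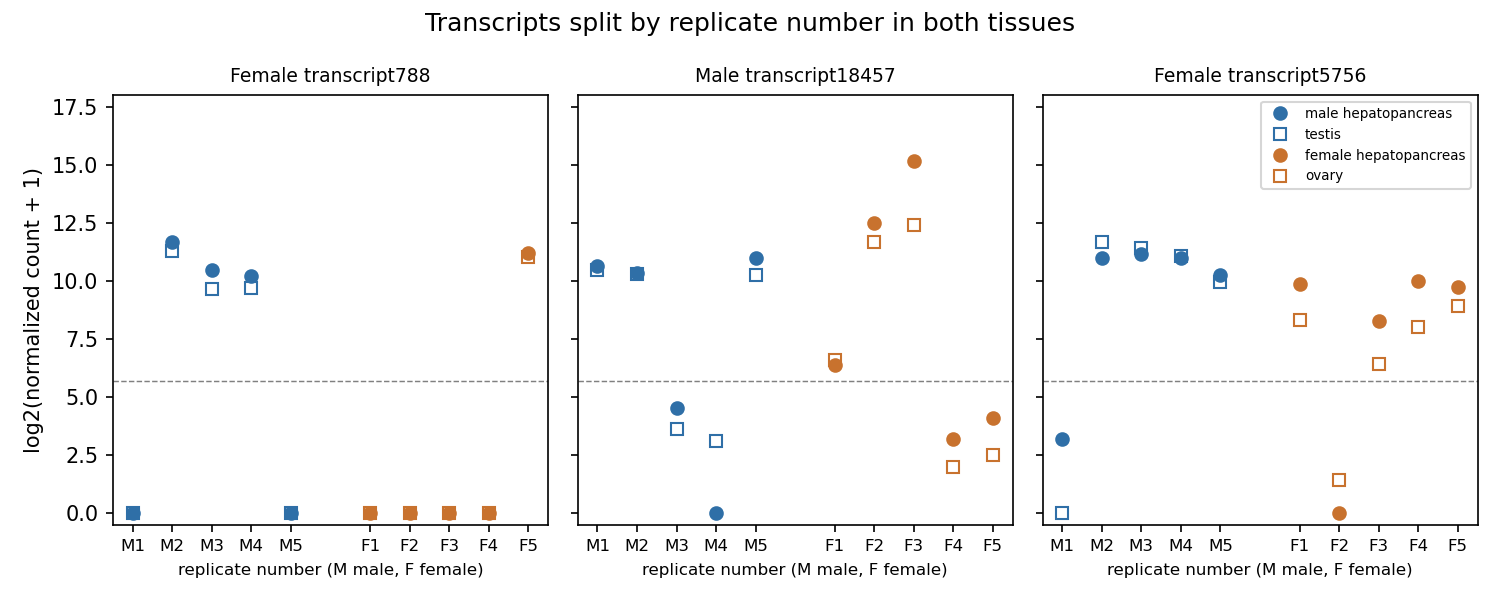
Levels of 3 transcripts as log2 of normalized counts plus 1 (y) by replicate number (x, M male and F female), with filled circles for hepatopancreas and open squares for gonads. The dashed line marks 50 normalized counts; in each panel both tissues of a number lie on the same side of it.

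Weight gain was tested as a slope within sex, which the rule did not use. No member passed in the hepatopancreas (0 of 298) or in the gonads (0 of 295), beside 0% of all transcripts tested, with smallest adjusted p-values for members of 0.751 and 0.9998 (edgeR). At an unadjusted p under 0.05, 46 members (15.4%) had a slope in the hepatopancreas, 38 rising and 8 falling with weight gain, against 6.15% of 6582 transcripts. In the gonads 10 members (3.39%) did, 6 rising and 4 falling, against 2.48% of 7045. By DESeq2, 12 members passed as rising and 3 as falling in the hepatopancreas, and 2 as rising in the gonads, beside 1.12%, 0.182% and 0.227% of all tested. With the 5 male libraries of a tissue alone, no member passed, and 22 of 270 and 4 of 269 had an unadjusted p under 0.05. Weight gain labels of the hepatopancreas did not overlap between the sexes, so a sex difference there and a weight gain difference cannot be told apart between these groups.

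The lengths of the members were close to those of the transcripts at the same minimum. The median length was 1873 bases, against 1754 for the transcripts at the same minimum, and the median of the number written after f was 3, against 4. The quality class in the ID was HQ for 298 members. No sequence is printed, because the files used here hold IDs and lengths alone.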

How the data were processed

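RNA-seq of 20 libraries was analysed from 1 table of estimated counts deposited by the authors, unnormalized, for 30260 transcripts. Per the submitters' processing notes, the tools include DESeq 1.10.1 and Bowtie 0.12.2, without a role. The counter and reference were not given in the sources used here. Libraries were grouped by sex and tissue from the labels. Members and tests were chosen with earlier results of these data known.

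Estimated counts were rounded. Tests used edgeR 4.0.16 (quasi-likelihood, TMM factors) in R 4.3.3 on transcripts reaching 10 counts in 5 or more of the fitted libraries, each on its own groups or, for the interaction, all 20 libraries. Weight gain slopes were fitted within sex. P-values were Benjamini-Hochberg adjusted over all transcripts tested, and passing means under 0.05. Standard errors are the log2 change over the square root of F. Alternatives were DESeq2 1.42.0, its size factors, library totals, filters, all groups in 1 fit, covariates, replicate blocks, other settings of the rule and leaving out each library. Fits were checked on simulated data with the same spread setting for all transcripts and, apart from planted changes, the same profile in all libraries. The unequal spread of the members and the differing make-up of the tissues are not covered by that check, and nothing is read from it. Depth per library ran from 8670654 to 18355664 counts, and intervals cover counting error only.

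With no gene names, at most 2 transcripts per direction and comparison were named. These had the largest change among those passing, without overlap for tissue comparisons. The 2 of highest smaller ratio and of highest level per kilobase in each male group were added, and in the tissue comparisons the remainder was given without IDs.

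Replicate numbers were checked as pairs. Every male hepatopancreas library correlated with the testis of its number at over 0.1 across 6944 transcripts (0.146 to 0.278), so male numbers pair by this check. The female correlations ran from -0.0945 to 0.408 and were over 0.1 for all numbers but 4. Female hepatopancreas 2 correlated more with ovary 4 (0.168), and female hepatopancreas 4 more with ovary 2 (0.169). Female numbers as a set therefore do not pair by this check, while numbers 1, 3 and 5 matched their own ovary best. The tests reported are without the block, which was fitted as an alternative. With the block, 115 of the 133 members called between the male tissues still passed. For the female tissues 132 of 157 did, and for the interaction 88 of 114.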

Additional observations from a re-analysis of the deposited data

Results flagged for a closer look

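There were 84 groups of 5 libraries, for the named transcripts and for the members' share of counts and median level. Of these, 18 held a library whose gap to the nearest other exceeded 0.71 of the group's range. For normally distributed values chance gives about 1 in 20. The transcripts' counts were not log-transformed, and many were named for extreme values, so that rate is no baseline here. Values are normalized counts.

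In female hepatopancreas, these were library 3 for Female_transcript7050 (477) and Male_transcript18457 (36139), library 1 for Female_transcript15204 (9891), library 2 for Female_transcript1026 (15.1), library 4 for Female_transcript404 (3496), and library 5 for Male_transcript5671 (597) and Female_transcript788 (2366). In male hepatopancreas they were library 3 for Female_transcript1499 (275399) and library 4 for Female_transcript475 (47697). In testis, library 5 stood apart for Female_transcript404 (2519).

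In ovary, library 5 stood apart for Female_transcript1499 (0.508), Female_transcript12358 (1.52), Male_transcript5671 (14.2), Female_transcript788 (2103) and Female_transcript2089 (1698). Library 2 did for Female_transcript1899 (1.65), and library 3 for Female_transcript2164 (1387) and Female_transcript488 (1852). All but that of Female_transcript1026 were the highest of their group. Female_transcript788 and Male_transcript5671 stood apart in number 5 of both female tissues.

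The sex difference differed between the tissues by the edgeR interaction for 111 members toward the gonads and 3 toward the hepatopancreas. The log2 changes were 11.95 for Female_transcript404, 10.08 for Female_transcript1899, -4.13 for Female_transcript2164 and -4.00 for Female_transcript488.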

How the results depend on the processing

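The number of transcripts meeting the rule was 94 by library totals, 617 at a ratio of 1.5, 67 at a ratio of 4, and 269 to 357 leaving out each library. By library totals, members passing were 112 higher in testis than in male hepatopancreas, 33 higher and 59 lower in ovary than in female hepatopancreas, 65 and 8 by the interaction toward gonads and hepatopancreas, 0 higher in male than in female hepatopancreas, and 143 higher and 1 lower in testis than in ovary. DESeq2 gave 5 toward the hepatopancreas by the interaction, 12 rising and 3 falling with weight gain in hepatopancreas, 2 rising in gonads, and 133 higher in male than in female hepatopancreas. Without a filter, 5 were higher in ovary than in female hepatopancreas and 0 higher in male than in female hepatopancreas, and 0 were with weight gain as a covariate. Without the atypical libraries the interaction gave 6 toward the hepatopancreas. Leaving out male hepatopancreas 5 and testis 5, 117 members (against 9.72% of the transcripts at the same minimum) did not overlap in hepatopancreas and 96 (against 4.36%) in both tissues. The rule used these contrasts, so the shares are a description. Leaving out each library gave 3 to 6 higher in ovary than in female hepatopancreas, 3 to 5 toward the hepatopancreas by the interaction, and 0 to 92 higher in male than in female hepatopancreas. With a replicate block the first of these counts was 6, and 0 members were higher in male than in female hepatopancreas. The pairing was not borne out for female numbers 2 and 4 across the 6944 transcripts. The interaction of Female_transcript488 was -2.44 (edgeR adjusted p 0.0623) without ovary 3 and -1.85 (0.286) with a replicate block; its other 25 alternatives stayed past the threshold, as did all alternatives of the other 11 named changes that gave an adjusted p. The block changed no call of the named tissue differences. Causes were not tested. Counts at depths of 8670654 to 18355664 limit the members near 0 in females.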
